A study of Mus musculus with 6 samples.

Results

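Cytochromes P450 are heme enzymes that insert an oxygen atom into their substrates, taking electrons from cytochrome P450 reductase in the endoplasmic reticulum or from ferredoxin in mitochondria. Some detoxify or activate foreign chemicals, others oxidize fatty acids, sterols, steroids and vitamin D, and the skin holds members of each kind in its keratinocytes, sebaceous glands and immune cells. Of the 55487 genes in the count table, 48 protein-coding genes carried a symbol of the form Cyp, number, letter, number and reached 10 counts summed over all libraries. In all 91 symbols of that form were considered, of which 43 lay below the minimum, and 2 further symbols were left out by the selection rule and are not analysed here. Among the symbols of that form, the genes were thus selected on their summed counts over the 6 libraries, not on the difference between groups. The P450 genes as a whole, however, were chosen with earlier results of these data known. Their shares of calls are therefore not those of a set chosen blind to the data. Cyp2d26, Cyp2j7, Cyp3a16, Cyp3a25 and Cyp24a1 had no count in one of the groups and so reached the minimum through the other group alone, which means that they had to differ. Just inside the minimum lay Cyp4a32 and Cyp3a16, with 11 and 12 counts in all, and just outside lay Cyp4a10 and Cyp2b13, with 8 counts each. Of the 43 genes below the minimum, 28 had no count in any library, and 14 belonged to the Cyp2c subfamily.

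Polyadenylated RNA of whole dorsal mouse skin was sequenced on day 2, in 3 samples treated with DPCP (diphenylcyclopropenone, a chemical that causes allergic contact dermatitis) and 3 control samples. The labels give no strain, age or sex, nor the treatment of the control skin. Since they name no separate animals either, p-values here reflect the spread between samples, which may be technical. The libraries held 31609336 to 38846787 counts in DPCP skin and 28346992 to 33468828 in control skin, so that 3 counts corresponded to 0.0772 to 0.106 CPM, the count scaled to a fixed library total. Epidermal genes, keratins among them, marked the tissue as skin in both groups: the 7 basal keratinocyte markers summed to 23757 to 28616 CPM in DPCP and 13825 to 15868 CPM in control libraries. Of 8 hepatocyte genes, which mark the organ richest in P450s, the sum was 9.02 to 13.5 CPM in DPCP and 4.26 to 6.99 CPM in control libraries, and Fgb was at 0.

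The sum of P450 transcripts was lower in DPCP skin. The 48 genes summed to 755, 634 and 597 CPM in the 3 DPCP libraries, against 1299, 1227 and 1388 CPM in the 3 control libraries. No DPCP library reached the lowest control library, and the ratio of the means (661.9 ± 83.0 CPM in DPCP and 1305 ± 80.6 CPM in control skin, SD, n = 3 each) was 0.507. The sum leaned on a few abundant genes: Cyp2g1 and Cyp2e1 held 18.8% and 14.4% of it in control skin, and 5.64% and 3.75% in DPCP skin. Not every subfamily fell, and the ratio of DPCP over control was 1.12 for Cyp4f and 8.09 for Cyp7b. In whole tissue, fewer cells of a type and less RNA per cell cannot be told apart. After the filter on low counts, 38 of the 48 genes were tested with edgeR's quasi-likelihood test, and an adjusted p under 0.05 (Benjamini-Hochberg, over all 18259 genes tested) made a call. Of the 38, 9 were called higher (23.7%, against 22.8% of all genes tested) and 21 lower (55.3%, against 23.3%), and 8 were not called. The share called higher was near the background, while the share called lower stood above it. The difference was at least 2-fold in 4 genes called higher and 15 called lower, and the median log2 fold change of the 38 genes was −0.71, beside −0.01 for all genes tested. Cyp24a1 passed the filter only through the DPCP group, so it had to differ. In all 30 called genes the CPM values of the groups did not overlap, and with Cyp46a1, which was not called, this was so in 31 of 38 (81.6%). The same was found for 57.4% of all genes tested, of which 46.1% were called.

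**Figure D1:**
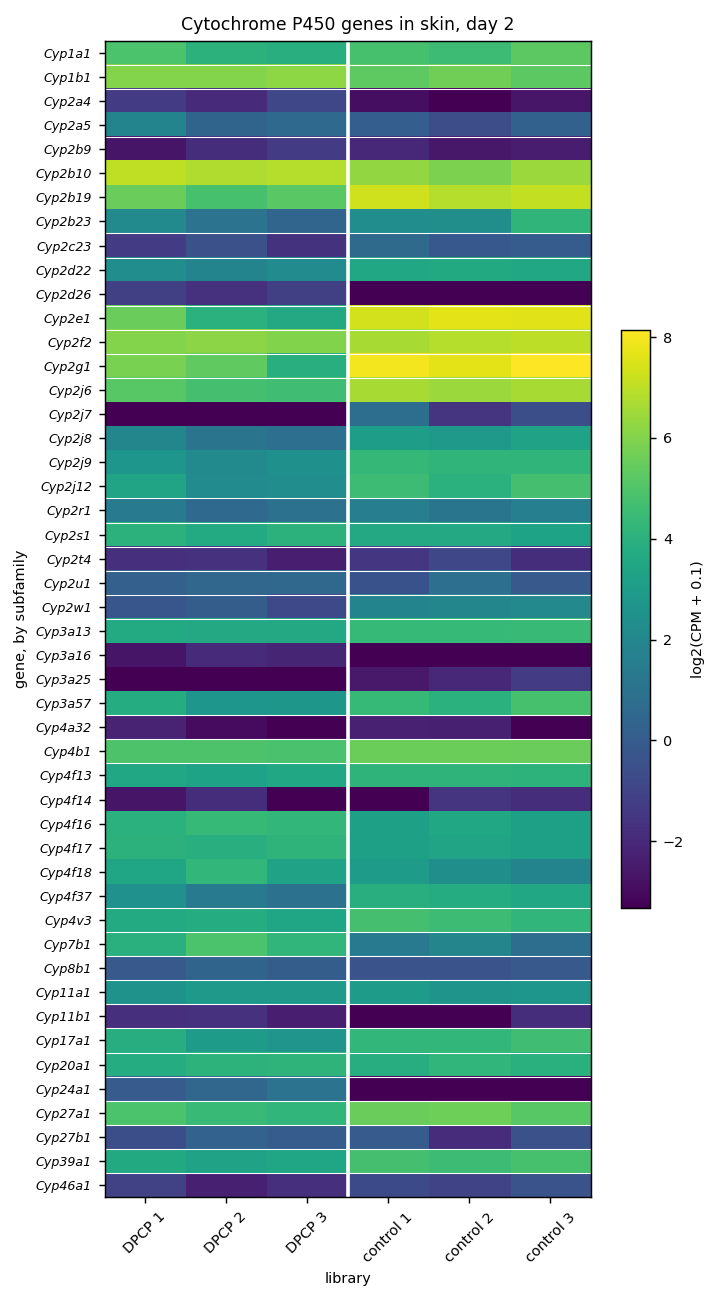
Heat map of the 48 P450 genes (rows, by subfamily) in the 3 DPCP libraries (left) and 3 control libraries (right), coloured by log2(CPM + 0.1). Cyp2e1, Cyp2g1, Cyp2b19 and the Cyp2j genes are darker in all DPCP libraries, while Cyp7b1, Cyp1b1 and Cyp24a1 are brighter there.

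DPCP replicate 1 was the DPCP library nearest to the control mean in 19 of the 30 called P450 genes (63.3%), against 54.3% of all called genes. Of the 30 calls, 26 held under each of the 14 other ways of fitting or filtering that tested them, and the exceptions were Cyp2a5, Cyp2b23, Cyp2c23 and Cyp2s1. Several P450 genes lie in clusters of near-identical copies. The counting program leaves out, by default, reads that align to several places, so the levels of genes that share long stretches are uncertain. By words of 50 bases, the shared part of the longest coding transcript was 46.8% in Cyp4a32, 40.8% in Cyp2a5, 38.8% in Cyp2a4, 26.8% in Cyp3a25, 26.5% in Cyp4f16 and 21.7% in Cyp4f37. Exon bases overlap those of another gene in Cyp2a4, Cyp2f2, Cyp2s1, Cyp2t4, Cyp2u1, Cyp4f18, Cyp4v3, Cyp11a1, Cyp11b1 and Cyp24a1, and their levels are uncertain for that reason too.

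**Figure D2:**
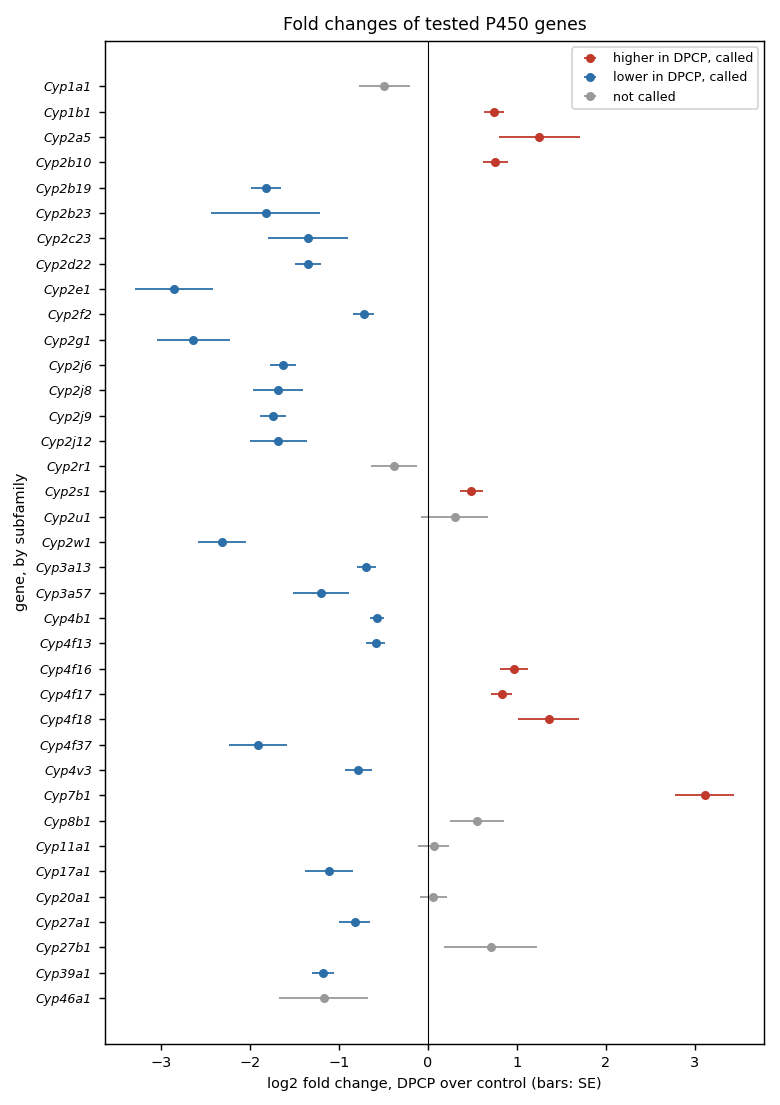
Log2 fold change of DPCP over control skin with its SE for the tested P450 genes except Cyp24a1, which had no control count. Red points (called higher) reach 3.11 for Cyp7b1, blue points (called lower) reach −2.86 for Cyp2e1, and grey points were not called.

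Per kilobase of gene length (CPM per kilobase, here RPKM), the levels of P450 genes could be set beside each other. In DPCP skin the highest mean levels were those of Cyp2b10 (56.3 ± 5.21 RPKM, SD, n = 3), Cyp2f2 (32.8 ± 1.65), Cyp2g1 (17.4 ± 9.82), Cyp4b1 (13.3 ± 0.535) and Cyp1b1 (11.6 ± 0.674). In control skin they were those of Cyp2g1 (114 ± 18.6 RPKM, SD, n = 3), Cyp2e1 (87.3 ± 10.6), Cyp2f2 (57.0 ± 7.28), Cyp2b10 (34.9 ± 6.41) and Cyp2b19 (32.8 ± 5.03). The last pair differed by less than its SD. In DPCP skin Cyp2g1 and Cyp4b1 differed by less than the SD of Cyp2g1, and Cyp1b1 lay within the SD of Cyp2e1 in the sixth place (11.5 ± 8.74 RPKM), so these places are not set apart. The 5 highest genes of each group held 51.9% of the summed P450 RPKM in DPCP skin and 63.1% in control skin. Cyp2b10 thus led in DPCP skin and stood in the fourth place in control skin.

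**Figure D3:**
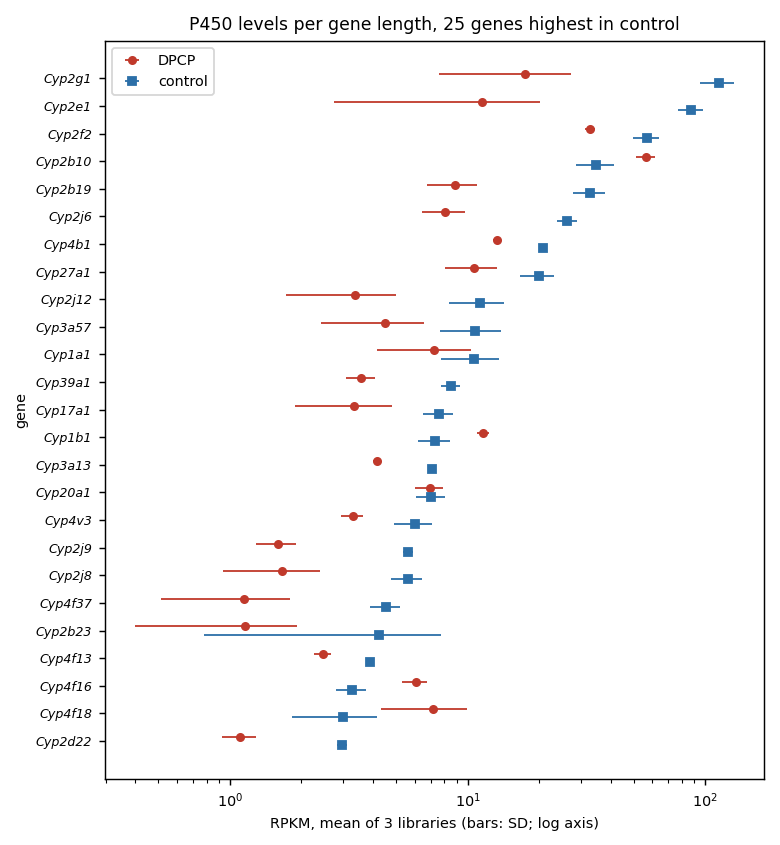
Mean level per gene length (RPKM, log axis) of the 25 P450 genes highest in control skin, DPCP as red circles above control as blue squares, with bars of 1 SD over 3 libraries. Cyp2g1 stood at 17.4 in DPCP and 114 in control skin, and Cyp2b10 at 56.3 in DPCP and 34.9 in control skin.

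Among genes that act on foreign chemicals, the first were the targets of the aryl hydrocarbon receptor, with gene coordinates given on GRCm38 as in the count table. Cyp1a1, which hydroxylates polycyclic aromatic hydrocarbons (ENSMUSG00000032315, chr9:57687928-57703824, plus strand), had 30.05, 16.2 and 14.3 CPM in the 3 DPCP libraries, against 27.5, 22.8 and 38.5 CPM in the 3 control libraries. The groups overlapped through DPCP replicate 1, and the gene was not called (log2 fold change −0.49 ± 0.29, SE, edgeR adjusted p = 0.195). Without DPCP replicate 1 it was called lower, at −0.86 (edgeR adjusted p = 0.0164). Cyp1b1, which hydroxylates estradiol and hydrocarbons (ENSMUSG00000024087, chr17:79701537-79715061, minus strand), had 65.5, 65.4 and 72.3 CPM in DPCP libraries, against 39.8, 50.4 and 37.98 CPM in control libraries. All DPCP libraries lay above all control libraries, and Cyp1b1 rose (log2 fold change 0.74 ± 0.11, SE, edgeR adjusted p = 0.00102). Whether the pair differed from each other in response was not tested.

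Both genes are textbook targets of the same receptor, and Cyp1b1 alone was called. The 250 bases upstream of their RefSeq starts (GRCm38.p6) are shown, with the receptor's core GCGTG (on either strand) and the TATA box TATAAA in capitals. The window of Cyp1a1 is chr9:57697363-57697612, plus strand, and that of Cyp1b1 is chr17:79715062-79715311, minus strand.
Cyp1a1: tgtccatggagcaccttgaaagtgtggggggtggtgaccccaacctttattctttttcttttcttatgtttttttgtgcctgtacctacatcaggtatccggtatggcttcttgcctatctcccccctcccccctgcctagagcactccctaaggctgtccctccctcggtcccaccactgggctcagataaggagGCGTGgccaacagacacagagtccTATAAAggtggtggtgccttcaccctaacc
Cyp1b1: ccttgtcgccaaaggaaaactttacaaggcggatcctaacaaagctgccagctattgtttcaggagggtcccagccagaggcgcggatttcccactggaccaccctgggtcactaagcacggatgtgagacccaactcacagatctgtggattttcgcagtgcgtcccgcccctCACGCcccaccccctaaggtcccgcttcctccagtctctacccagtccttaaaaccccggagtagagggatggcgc
The Cyp1a1 window held 1 core and 1 TATA box and the Cyp1b1 window 1 core. By the gene start in the count table, the whole Cyp1a1 window lies inside the gene. Promoter windows were found for 37 of the 48 P450 genes (42 windows). The core stood in 11 of the 42, and in 28.2% of the 32851 windows of all genes. A match is a match of letters, not evidence of a bound site.

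The cluster of Cyp2a, Cyp2b, Cyp2f, Cyp2g, Cyp2s and Cyp2t genes on chromosome 7 (chr7:25802475-27158668, 10 genes) held members that moved in opposite directions: of 7 tested, 3 were higher and 4 lower. Cyp2b10, known in liver for its induction by phenobarbital (ENSMUSG00000030483, chr7:25897620-25926624, plus strand), had 131, 109 and 117 CPM in DPCP libraries, against 77.4, 58.7 and 84.97 CPM in control libraries. It rose in every DPCP library (log2 fold change 0.76 ± 0.14, SE, edgeR adjusted p = 0.00290). Cyp2b19, an arachidonic acid epoxygenase of keratinocytes (ENSMUSG00000066704, chr7:26757142-26772630, plus strand), had 45.7, 28.1 and 36.7 CPM in DPCP libraries, against 159, 117 and 134 CPM in control libraries. It fell, and the highest DPCP library lay well under the lowest control library (log2 fold change −1.82 ± 0.17, SE, edgeR adjusted p = 9.46e-05). Of the 14 suprabasal and granular keratinocyte markers, 3 were higher (21.4%, against 22.8% of all genes tested) and 8 lower (57.1%, against 23.3%). The share called higher was near the background. Of those lower, 1 passed the filter only through the control group and had to differ. None of the 14 markers was at 0, and they summed to 7831 to 9638 CPM in DPCP and 17940 to 23893 CPM in control libraries. Their part in the Cyp2b19 result was not tested. Cyp2b23 had 4.41, 1.96 and 1.23 CPM in DPCP libraries, against 4.80, 5.02 and 18.05 CPM in control libraries. Its call (log2 fold change −1.82 ± 0.61, SE, edgeR adjusted p = 0.0382) rested on control replicate 3, without which the log2 fold change was −0.87 (adjusted p = 0.161). It was lost too without DPCP replicate 2 (adjusted p = 0.104) or DPCP replicate 3 (0.108), and the log2 fold change was −2.44 without DPCP replicate 1.

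Cyp2b10 and Cyp2b19 are close relatives that moved apart, so their upstream windows are shown, with the core GCGTG in capitals on either strand. The windows are chr7:25897408-25897657, plus strand for Cyp2b10 and chr7:26756892-26757141, plus strand for Cyp2b19.
Cyp2b10: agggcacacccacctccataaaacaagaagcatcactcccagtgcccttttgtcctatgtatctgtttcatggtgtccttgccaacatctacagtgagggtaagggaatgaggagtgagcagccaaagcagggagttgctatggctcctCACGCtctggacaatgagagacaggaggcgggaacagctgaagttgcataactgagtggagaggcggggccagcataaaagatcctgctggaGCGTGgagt
Cyp2b19: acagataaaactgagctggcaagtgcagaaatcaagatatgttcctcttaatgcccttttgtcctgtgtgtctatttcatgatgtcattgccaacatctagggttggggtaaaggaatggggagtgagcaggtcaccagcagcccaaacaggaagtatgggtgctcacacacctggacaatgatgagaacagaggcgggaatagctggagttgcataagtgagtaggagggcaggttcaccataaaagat
The Cyp2b10 window held 2 cores and the Cyp2b19 window none. The windows are offset, and the Cyp2b10 core at 9 to 5 bases upstream lies past the stretch that matches the end of the Cyp2b19 window. It also lies inside Cyp2b10 by the gene start in the count table. Only the core at 101 to 97 bases upstream can thus be compared. Over 219 aligned bases the windows were 84.5% identical, with a longest identical run of 14 bases. Among windows of all called P450 genes, the core stood in 3 of 6 of genes called higher and in 4 of 16 of genes called lower. The latter were Cyp2j9, Cyp2j12, Cyp2w1 and Cyp4v3, and the core was absent from the windows of Cyp2a5, Cyp2s1 and Cyp4f18. Whether the core goes with the direction of change was not tested.

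The remaining genes of the cluster included some of the largest decreases. Cyp2g1, best known from the olfactory mucosa (ENSMUSG00000049685, chr7:26808892-26821205, plus strand), had 56.2, 41.1 and 14.6 CPM in DPCP libraries, against 249, 203 and 283 CPM in control libraries. It fell in each DPCP library, most in DPCP replicate 3 (log2 fold change −2.64 ± 0.41, SE, edgeR adjusted p = 0.00114). Cyp2f2, which activates naphthalene in mouse lung, had 65.6, 70.02 and 63.5 CPM in DPCP libraries, against 99.98, 117 and 129 CPM in control libraries. Its groups stood apart and it fell (−0.72 ± 0.12, SE, edgeR adjusted p = 0.00149). Cyp2s1, a P450 of epithelia, had 16.5, 12.9 and 16.2 CPM in DPCP libraries, against 12.2, 12.1 and 10.01 CPM in control libraries. It was called higher (log2 fold change 0.49 ± 0.13, SE, edgeR adjusted p = 0.0146), and not without control replicate 3 (0.42, adjusted p = 0.0531). Cyp2a5, the coumarin hydroxylase of mouse, had 3.46, 1.18 and 1.39 CPM in DPCP libraries, against 0.988, 0.554 and 1.08 CPM in control libraries. DPCP replicate 1 stood apart from the other DPCP libraries, and the call (1.25 ± 0.45, SE, edgeR adjusted p = 0.0498) was lost without it (0.64, adjusted p = 0.188). The call was lost as well without control replicate 1, 2 or 3 (adjusted p = 0.0912, 0.144 and 0.0664). Cyp2a4, Cyp2b9 and Cyp2t4 were too low to test. Cyp2a4 had 31 counts in the DPCP group and 3 in the control group, a ratio of library shares of 8.91 with an exact 95% counting interval of 2.78 to 45.5, which covers counting error only.

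**Figure D4:**
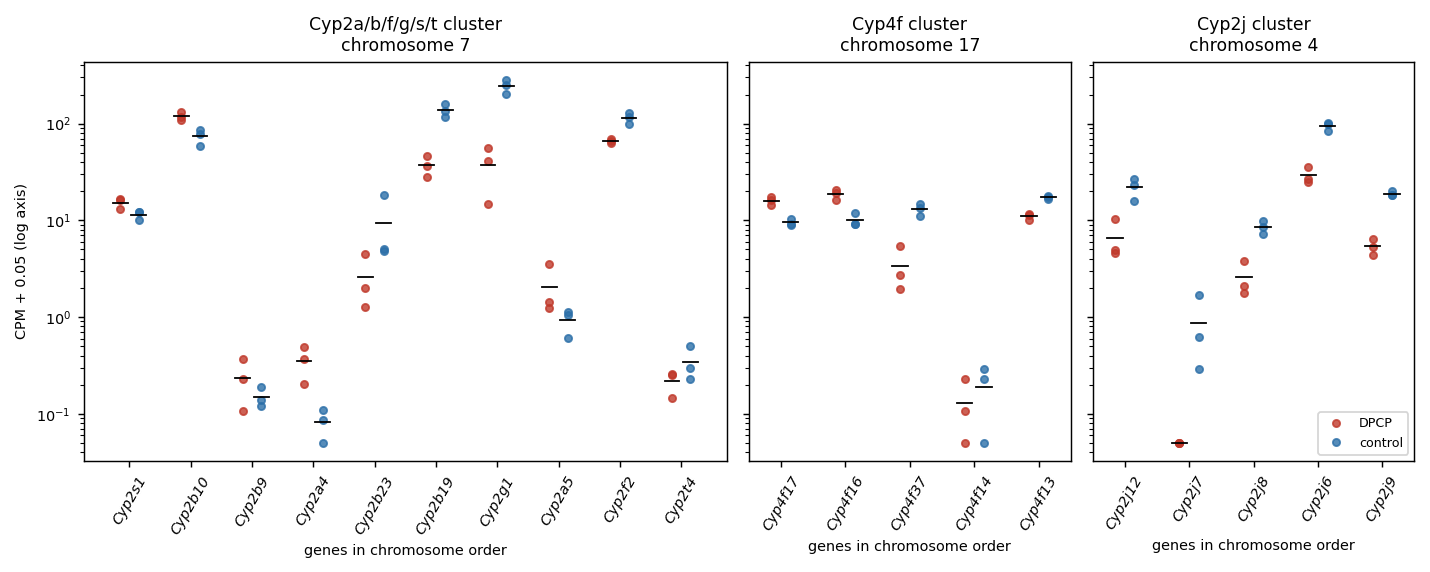
CPM + 0.05 (log axis) of every library for P450 genes of 3 clusters in chromosome order, DPCP in red left of control in blue, with group means as lines. All 4 tested Cyp2j genes are lower in DPCP skin, while Cyp2b10 and Cyp2b19, and Cyp4f16 and Cyp4f37, moved in opposite directions within their clusters.

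Outside the cluster, Cyp2e1, which oxidizes ethanol and other small molecules (ENSMUSG00000025479, chr7:140763739-140774987, plus strand), had 46.5, 15.8 and 12.1 CPM in DPCP libraries, against 162, 206 and 197 CPM in control libraries. DPCP replicate 1 stood above the other DPCP libraries but far under every control library, and Cyp2e1 fell (log2 fold change −2.86 ± 0.44, SE, edgeR adjusted p = 0.00108). Without DPCP replicate 1 the log2 fold change was −3.65. Of 10 adipocyte markers, 2 were higher (20.0%, against 22.8% of all genes tested) and 3 lower (30.0%, against 23.3%), both shares near the background, none was at 0, and they summed to 2134 to 2455 CPM in DPCP and 3716 to 3930 CPM in control libraries. Of 14 sebaceous gland markers, none was higher and 9 were lower (64.3%), none was at 0, and they summed to 4232 to 5836 CPM in DPCP and 6924 to 9004 CPM in control libraries. Of 10 skeletal muscle markers, none was higher and 10 were lower, with a median log2 fold change of −1.66, none was at 0, and they summed to 3583 to 6936 CPM in DPCP and 14569 to 18379 CPM in control libraries. Among DPCP libraries, the adipocyte and sebaceous sums were highest in replicate 1, as Cyp2e1 was. The muscle sum was lowest there, at 3583, 4971 and 6936 CPM in DPCP replicates 1, 2 and 3. The part of these 3 marker lists in the falls of Cyp2e1 and the other P450 genes was not tested. Cyp2d22, of the subfamily that holds the human drug-metabolizing CYP2D6, had 4.90, 3.55 and 4.52 CPM in DPCP libraries, against 11.4, 12.3 and 11.1 CPM in control libraries. It fell with little spread within groups (−1.35 ± 0.15, SE, edgeR adjusted p = 0.000194). Cyp2w1 was low in both groups and fell: it had 0.749, 0.927 and 0.475 CPM in DPCP libraries, against 3.53, 3.78 and 4.15 CPM in control libraries (−2.32 ± 0.27, SE, edgeR adjusted p = 0.000299). Cyp2d26 had 31 counts in DPCP and none in control libraries, at least 8.91-fold higher against 3 counts over the group.

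Both tested genes of the Cyp3a subfamily, which oxidizes many drugs, fell. Cyp3a13 had 12.8, 12.1 and 11.99 CPM in DPCP libraries, against 20.5, 20.4 and 21.8 CPM in control libraries (−0.69 ± 0.10, SE, edgeR adjusted p = 0.000878). Cyp3a57 had 13.7, 6.46 and 6.68 CPM in DPCP libraries, against 20.3, 16.01 and 28.2 CPM in control libraries, with DPCP replicate 1 nearest to control (−1.20 ± 0.31, SE, edgeR adjusted p = 0.0132). The others rested on few counts and were not tested. Cyp3a16 had 12 counts in DPCP and none in control libraries (at least 3.45-fold higher), and Cyp3a25 had none in DPCP and 16 in control libraries (at least 6.19-fold lower).

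Among genes of fatty acid oxidation, those of the Cyp2j subfamily, which holds arachidonic acid epoxygenases among its members, fell together. Its 5 genes lie in a cluster on chromosome 4 (chr4:96099318-96591578), and all 4 tested were lower. They summed with Cyp2j7 to 43.5 ± 10.98 CPM in DPCP skin and 145 ± 16.5 CPM in control skin (SD, n = 3 each), a ratio of 0.300. Cyp2j6 (ENSMUSG00000052914, chr4:96516138-96553661, minus strand) had 35.8, 26.9 and 24.6 CPM in DPCP libraries, against 99.7, 84.6 and 101 CPM in control libraries (log2 fold change −1.63 ± 0.14, SE, edgeR adjusted p = 7.03e-05). Cyp2j9 had 6.34, 4.32 and 5.28 CPM in DPCP libraries, against 19.8, 18.2 and 18.2 CPM in control libraries (−1.75 ± 0.15, SE, edgeR adjusted p = 5.45e-05). In both genes the groups stood far apart, and the control libraries differed little among themselves. Cyp2j12 had 10.2, 4.58 and 4.84 CPM in DPCP libraries, against 23.2, 15.7 and 26.9 CPM in control libraries (−1.68 ± 0.32, SE, edgeR adjusted p = 0.00308). Cyp2j8 had 3.77, 2.03 and 1.74 CPM in DPCP libraries, against 8.43, 7.24 and 9.74 CPM in control libraries (−1.68 ± 0.28, SE, edgeR adjusted p = 0.00164). In each of these, DPCP replicate 1 was the highest DPCP library. Cyp2j7 had no count in DPCP libraries and 73 in control libraries (at least 28.2-fold lower). The log2 fold changes of the 4 tested genes, −1.63 to −1.75, differed from each other by less than their SE.

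The Cyp4f subfamily, which hydroxylates leukotrienes and long fatty acids at their ends, was divided. Of 5 tested genes, 3 were higher and 2 lower, and the 6 genes summed to 62.1 ± 4.24 CPM in DPCP skin and 55.5 ± 5.01 CPM in control skin (SD, n = 3 each). Cyp4f16 (ENSMUSG00000048440, chr17:32536558-32551798, plus strand) had 16.2, 20.5 and 18.95 CPM in DPCP libraries, against 9.17, 11.7 and 9.17 CPM in control libraries, and rose (log2 fold change 0.97 ± 0.15, SE, edgeR adjusted p = 0.00124). Cyp4f37, in the same cluster (ENSMUSG00000062464, chr17:32621309-32636184, plus strand), had 5.39, 2.65 and 1.90 CPM in DPCP libraries, against 14.7, 13.4 and 11.1 CPM in control libraries, and fell (−1.91 ± 0.33, SE, edgeR adjusted p = 0.00182). These genes share 26.5% and 21.7% of their 50-base words, which makes both levels uncertain. By words of 150 bases, the length of the reads, they shared 2.77% and 2.32%. Cyp4f17 had 16.2, 14.4 and 17.2 CPM in DPCP libraries, against 9.07, 10.3 and 8.96 CPM in control libraries, and rose (0.83 ± 0.12, SE, edgeR adjusted p = 0.000756). Cyp4f13 had 11.4, 9.94 and 11.5 CPM in DPCP libraries, against 17.4, 17.7 and 16.8 CPM in control libraries, and fell (−0.59 ± 0.10, SE, edgeR adjusted p = 0.00229). All these groups stood apart without overlap.

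Cyp4f16 and Cyp4f37 moved in opposite directions although their upstream windows are nearly the same over much of their length. The windows, chr17:32536307-32536556, plus strand for Cyp4f16 and chr17:32621069-32621318, plus strand for Cyp4f37, are shown with the AP-1 letters TGANTCA and the core GCGTG in capitals on either strand.
Cyp4f16: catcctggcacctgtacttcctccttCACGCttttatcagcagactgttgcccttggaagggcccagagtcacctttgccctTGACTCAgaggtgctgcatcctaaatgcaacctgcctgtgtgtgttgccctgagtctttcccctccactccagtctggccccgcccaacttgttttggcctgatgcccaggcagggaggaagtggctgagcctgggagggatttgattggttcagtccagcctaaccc
Cyp4f37: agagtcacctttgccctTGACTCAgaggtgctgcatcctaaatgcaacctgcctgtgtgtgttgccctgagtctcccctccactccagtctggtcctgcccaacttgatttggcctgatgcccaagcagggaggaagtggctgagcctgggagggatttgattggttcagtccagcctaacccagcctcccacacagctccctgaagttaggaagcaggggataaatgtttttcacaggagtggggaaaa
The windows were 97.8% identical over 183 aligned bases, with a longest identical run of 74 bases. The AP-1 letters stood in both, and in 6.75% of all windows, while the core GCGTG stood in the Cyp4f16 window alone, which reaches further upstream of the aligned stretch. The AP-1 letters stood in 4 of the 42 P450 windows. The antioxidant element TGACNNNGC stood in 3 of the 42 (10.2% of all windows) and the TATA box in 8 (12.4%), both searched on both strands.

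Cyp4f18, a leukotriene hydroxylase of neutrophils on chromosome 8 (ENSMUSG00000003484, chr8:71988482-72009626, minus strand), had 10.9, 19.2 and 9.62 CPM in DPCP libraries, against 7.83, 5.20 and 3.56 CPM in control libraries. It rose, with DPCP replicate 2 highest (log2 fold change 1.36 ± 0.34, SE, edgeR adjusted p = 0.0117). Of 10 neutrophil markers, 9 were higher and 1 lower, where 22.8% of all genes tested were higher and 23.3% lower. Of those higher, 2 passed the filter only through the DPCP group and had to differ. None of the 10 was at 0. The markers summed to 591, 1479 and 881 CPM in the 3 DPCP libraries, against 155 to 182 CPM in control libraries. DPCP replicate 2 was again highest. Between DPCP replicates 1 and 3, Cyp4f18 was higher in replicate 1 and the sum of the markers in replicate 3. Their part in the Cyp4f18 result was not tested. Exons of Cyp4f18 overlap those of Zfp961, which was at 15.7 ± 0.372 CPM in DPCP and 14.6 ± 0.247 CPM in control skin (SD, n = 3 each) and was not called.

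The remaining fatty acid oxidizers fell or were not called. Cyp4b1, which also activates plant furans, had 30.8, 30.6 and 28.6 CPM in DPCP libraries, against 47.5, 48.1 and 45.4 CPM in control libraries, with very little spread in either group (−0.57 ± 0.08, SE, edgeR adjusted p = 0.000742). Cyp4v3, the mouse counterpart of human CYP4V2, whose loss causes a crystalline retinal dystrophy, had 12.9, 13.6 and 11.1 CPM in DPCP libraries, against 26.8, 23.1 and 18.6 CPM in control libraries (−0.78 ± 0.15, SE, edgeR adjusted p = 0.00334). Cyp2c23, the only gene of its subfamily that reached the minimum and an epoxygenase in rat kidney, had 0.317, 0.618 and 0.221 CPM in DPCP libraries, against 1.48, 0.797 and 0.926 CPM in control libraries (−1.35 ± 0.45, SE, edgeR adjusted p = 0.0373). It rested on few counts, and its call was lost without DPCP replicate 1 (adjusted p = 0.0996), DPCP replicate 3 (0.109), control replicate 1 (0.138) or control replicate 3 (0.0650). Cyp2u1, which hydroxylates long-chain fatty acids, had 1.04, 1.29 and 1.33 CPM in DPCP libraries, against 0.635, 1.70 and 0.807 CPM in control libraries. Its groups overlapped and it was not called (0.30 ± 0.38, SE, edgeR adjusted p = 0.544). Cyp4a32 and Cyp4f14 were too low to test.

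Sterol-oxidizing genes moved in both directions. Cyp7b1, an oxysterol hydroxylase that takes part in making an attractant of immune cells (ENSMUSG00000039519, chr3:18071950-18243338, minus strand), had 15.4, 29.8 and 18.6 CPM in DPCP libraries, against 2.65, 3.57 and 1.67 CPM in control libraries. Every DPCP library lay above every control library, DPCP replicate 2 highest, and the mean was 21.3 ± 7.58 CPM in DPCP and 2.63 ± 0.948 CPM in control skin (SD, n = 3 each). Its rise, 8.65-fold or 3.11 ± 0.33 on the log2 scale (SE, edgeR adjusted p = 0.000185), was the largest among the tested P450 genes other than Cyp24a1. Of the 10 macrophage and monocyte markers, 6 were higher (60%, against 22.8% of all genes tested), none was lower and none was at 0. They summed to 3683, 4394 and 2681 CPM in the 3 DPCP libraries, against 2739, 2690 and 1606 CPM in the 3 control libraries, so the groups overlapped. Between DPCP replicates 1 and 3, Cyp7b1 was higher in replicate 3 and the sum of these markers in replicate 1. The neutrophil sums ranked the DPCP libraries as Cyp7b1 did, and the macrophage sums as Cyp4f18 did. The part of either marker list in the Cyp7b1 result was not tested.

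Cyp39a1, an oxysterol hydroxylase, had 12.5, 9.50 and 10.8 CPM in DPCP libraries, against 26.8, 23.3 and 27.8 CPM in control libraries, and fell (−1.18 ± 0.13, SE, edgeR adjusted p = 0.000188). Cyp27a1, the mitochondrial sterol hydroxylase, had 29.8, 21.1 and 18.8 CPM in DPCP libraries, against 46.4, 48.5 and 35.3 CPM in control libraries, and fell (−0.82 ± 0.17, SE, edgeR adjusted p = 0.00503). In both genes the groups did not overlap. Cyp8b1, of bile acid synthesis, had 0.807, 1.21 and 0.949 CPM in DPCP libraries, against 0.670, 0.658 and 0.807 CPM in control libraries, and was not called (0.55 ± 0.31, SE, edgeR adjusted p = 0.173). Cyp46a1, the cholesterol hydroxylase of neurons, had 0.375, 0.103 and 0.190 CPM in DPCP libraries, against 0.494, 0.416 and 0.657 CPM in control libraries, and was not called (−1.17 ± 0.50, SE, edgeR adjusted p = 0.0855), except without DPCP replicate 1 (−1.75, adjusted p = 0.0332).

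Of the steroid-making genes, Cyp17a1, which makes androgen precursors, had 13.9, 7.70 and 6.23 CPM in DPCP libraries, against 19.3, 19.2 and 24.5 CPM in control libraries. It fell, with DPCP replicate 1 nearest to control (−1.11 ± 0.27, SE, edgeR adjusted p = 0.00935). Cyp11a1, which cleaves the side chain of cholesterol, had 5.56, 7.26 and 7.37 CPM in DPCP libraries, against 7.87, 6.06 and 6.48 CPM in control libraries. Its groups overlapped and it was not called (0.06 ± 0.18, SE, edgeR adjusted p = 0.795). Cyp11b1, which makes corticosterone, was too low to test. Cyp20a1, whose substrate is unknown, had 13.5, 16.8 and 17.4 CPM in DPCP libraries, against 14.1, 18.6 and 15.6 CPM in control libraries, and was not called (0.06 ± 0.15, SE, edgeR adjusted p = 0.769).

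In vitamin D metabolism, the gene that degrades the active hormone was found in DPCP skin alone. Cyp24a1 (ENSMUSG00000038567, chr2:170482708-170497145, minus strand) had 31, 49 and 62 counts in the 3 DPCP libraries and 0 in each of the 3 control libraries. Against 3 counts over the control group, it was at least 40.8-fold higher. Its exons overlap those of Pfdn4, which was at 14.8 ± 1.31 CPM in DPCP and 10.8 ± 1.91 CPM in control skin (SD, n = 3 each) and was itself called higher (log2 fold change 0.54, edgeR adjusted p = 0.0267). Cyp27b1, which makes the active hormone, had 0.576, 1.11 and 0.917 CPM in DPCP libraries, against 0.882, 0.173 and 0.627 CPM in control libraries. The groups overlapped and it was not called (0.71 ± 0.52, SE, edgeR adjusted p = 0.300). Cyp2r1, which makes its precursor, had 2.48, 1.42 and 1.93 CPM in DPCP libraries, against 2.86, 2.08 and 3.02 CPM in control libraries, and was not called (−0.39 ± 0.26, SE, edgeR adjusted p = 0.253). The vitamin D receptor gene Vdr had 140 ± 40.1 CPM in DPCP and 111 ± 5.84 CPM in control skin (SD, n = 3 each) and was not called (edgeR adjusted p = 0.0889).

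Genes that serve or govern P450 enzymes were taken in 7 lists, which overlap. Tiparp and Ahrr stood in both the receptor list and the list of aryl hydrocarbon receptor targets. Ugt1a6a and Ugt1a7c stood in both the target list and the transferase list. The totals count no gene repeatedly, while the counts by list do. Of 127 genes in all, 103 were tested, 34 of them higher (33%, against 22.8% of all genes) and 32 lower (31.1%, against 23.3%). Of these, 3 passed the filter through 1 group alone and had to differ: Il24 and Sult4a1 through DPCP skin and Nr1h4 through control skin. Of 23 tested genes for electron donors and heme, 8 were higher (34.8%) and 5 lower (21.7%). The heme synthesis genes Cpox and Alas1 rose (0.84 ± 0.09 and 0.75 ± 0.11 on the log2 scale, SE), and the P450 reductase gene Por by 0.49 ± 0.11. The membrane heme-binding genes Pgrmc2 and Pgrmc1 fell (−0.66 ± 0.14 and −0.43 ± 0.10), as did the reductase gene Cyb5r2 (−1.46 ± 0.33). Of 20 tested receptor genes, 3 were higher (15%) and 8 lower (40%). The fatty acid receptor gene Ppard rose by 1.51 ± 0.13 and Tiparp, a target and repressor of the aryl hydrocarbon receptor, by 0.74 ± 0.13, while Rara rose by 0.35 ± 0.11 but was not called without DPCP replicate 2 (adjusted p = 0.0969) or control replicate 3 (0.0933). The glucocorticoid receptor gene Nr3c1 (−0.68 ± 0.09), the aryl hydrocarbon receptor gene Ahr (−0.60 ± 0.08) and Ppara (−1.74 ± 0.24) fell. Of 11 genes other than P450s known as targets of the aryl hydrocarbon receptor, Tiparp among them, 8 were higher (72.7%) and 2 lower (18.2%). Slc7a5 was at 1.71 ± 0.10, Nfe2l2 at 1.12 ± 0.10, Aldh3a1 at −1.52 ± 0.13 and Ahrr at −0.63 ± 0.15. The cytokine gene Il24, one of the 8, was at 31.6 ± 2.61 CPM in DPCP skin, against 0.123 ± 0.156 CPM in control skin (SD, n = 3 each).

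**Figure D5:**
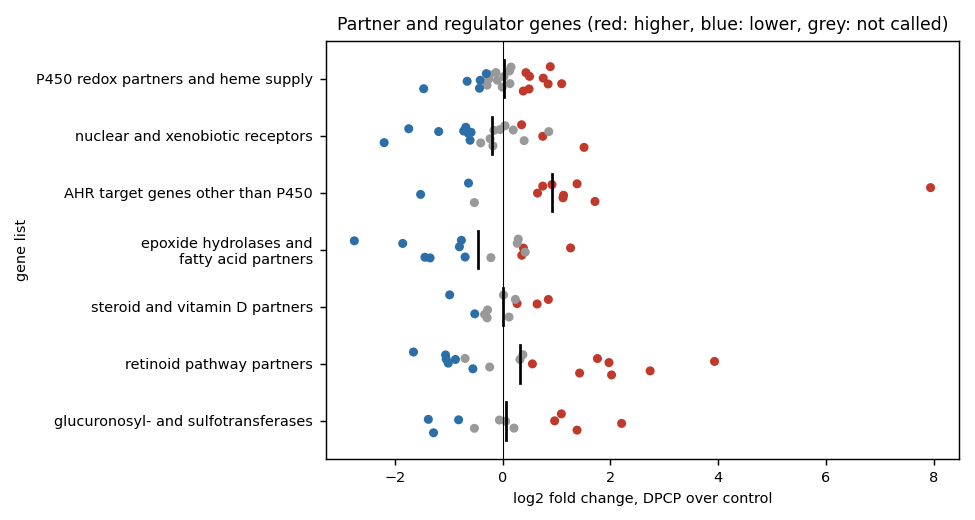
Log2 fold change of DPCP over control skin for each tested gene of the 7 partner and regulator lists, with the list median as a black line. Red points were called higher and blue points lower by edgeR's quasi-likelihood test. The list of aryl hydrocarbon receptor targets has its median at 0.92.

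Of 14 tested genes for epoxide hydrolases and other lipid oxidizers, 3 were higher (21.4%) and 7 lower (50%). Fmo2, a flavin monooxygenase gene, fell (log2 fold change −2.75 ± 0.17, SE), as did Adh7 (−1.85 ± 0.13) and the epidermal lipoxygenase gene Aloxe3 (−1.44 ± 0.15). Aldh3b1 rose by 1.26 ± 0.27, and the epoxide hydrolase genes Ephx2 and Ephx3 by 0.36 ± 0.11 and 0.39 ± 0.13. The call of Ephx2 was lost without DPCP replicate 1 or 3 (adjusted p = 0.0672 and 0.0758) or control replicate 1 or 3 (0.0818 and 0.0728), and that of Ephx3 without DPCP replicate 3 (0.105) or control replicate 1 or 2 (0.0861 and 0.0982). Of 17 retinoid genes, 7 were higher (41.2%) and 6 lower (35.3%), with Lrat at 3.93 ± 0.19, Aldh1a3 at 2.74 ± 0.15, Crabp2 at 1.76 ± 0.12, Aldh1a1 at −1.65 ± 0.13, Rbp4 at −1.05 ± 0.14 and Dgat2 at −0.87 ± 0.12. Of 11 tested steroid and vitamin D genes, 3 were higher (27.3%) and 2 lower (18.2%), shares near the background of 22.8% and 23.3%, with Hsd11b1, which regenerates corticosterone, at 0.85 ± 0.12 and Tspo at 0.64 ± 0.10. The call of Stard3 (0.27 ± 0.09) was lost without DPCP replicate 1, 2 or 3 (adjusted p = 0.0714, 0.0965 and 0.103) or control replicate 1 or 3 (0.109 and 0.144). The call of Hsd3b6 (−0.98 ± 0.33) was lost without DPCP replicate 2 or 3 (0.101 and 0.0762) or control replicate 1 or 3 (0.0919 and 0.107). The call of Akr1c18 (−0.52 ± 0.17) was lost without DPCP replicate 3 (0.0921) or control replicate 1 or 3 (0.109 and 0.119). Of 11 tested genes for glucuronosyl- and sulfotransferases, 4 were higher (36.4%) and 3 lower (27.3%), with Sult2b1 at 1.09 ± 0.15, Sult5a1 at −1.28 ± 0.17 and Sult1a1 at −0.82 ± 0.17. Ugt1a7c, Ugt1a6b and Ugt1a1 share exons, so their values (1.38 ± 0.25, 0.96 ± 0.30 and −1.38 ± 0.29) are uncertain. The call of Ugt1a6b was lost without DPCP replicate 1 or 3 (adjusted p = 0.0910 and 0.0775) or control replicate 1 or 3 (0.0918 and 0.0876). Exons of Cpox, Alas1, Cyb5r2, Tiparp, Ahr, Adh7, Tspo, Sult2b1 and Sult1a1 also overlap those of other genes, which makes their levels uncertain.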

How the data were processed

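Per the file headers, the authors' deposited values are raw read counts per gene from featureCounts 1.6.2 with the Ensembl release of GRCm38, and the command carries no option for pairs or strand, so mates were counted separately and strands together although the kit keeps strand. Trimmomatic 0.36, HISAT2 2.2.1, StringTie 2.2.1 and DESeq2 1.34.0 are named in the submitters' processing notes. Symbols and biotypes came from GENCODE M21 (55227 of 55487 identifiers matched) and promoters from RefSeq. Counts were tested with edgeR 4.0.16 in R 4.3.3 (quasi-likelihood test, TMM factors of 0.942 to 1.04, filterByExpr at a minimum of 10 counts, Benjamini-Hochberg adjustment over 18259 genes). Standard errors are the log2 fold change over the square root of F. The procedure was also run on simulated data in which far fewer genes changed than were called here. It therefore does not cover a setting with as many changes as these data. Alternatives were other scalings, filters, DESeq2 1.42.0, a replicate block, genes without shared exon bases and leaving out each library.

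The P450 genes, gene lists and tests were chosen with earlier results of these data known. Values in every library are given for called P450 genes, and for tested ones that were not called, with up to 3 called genes each way from each partner list by the smallest p among those of at least 1 CPM. Cyp24a1 is given in counts. Por, Vdr and Il24 were named after their values were seen, and Il24 is given in CPM. Protein stretches were not used here. A partner gene that this rule selects is not reported here. Intervals and floors cover counting error only.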

Additional observations from a re-analysis of the deposited data

How the results depend on the processing

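Of the 9 P450 genes called higher, 5 were called among genes that share no exon base, 4 at an added 2-fold difference and, in an alternative added after seeing the data, 4 among the genes with under 5% of shared 50-base words. These settings test fewer genes or ask for more, by construction. Leaving out each library gave 8 to 11 P450 genes called higher and 19 to 23 lower, of 39 to 41 tested. Of all genes in these fits, 18.7% to 21.6% were higher and 18.3% to 21.6% lower. Some of these fits called Cyp2d26 or Cyp2j7, which had counts in a single group and had to differ. Some also called Cyp2a4 higher, and the fit without DPCP replicate 1 called Cyp1a1 and Cyp46a1 lower. Among partner genes, 34 were called higher, 22 where no exon base is shared and 16 at 2-fold, and 32 lower, 15 at 2-fold, with ranges over left-out libraries of 29 to 34 and 27 to 34. Without the filter on low counts, 11 of the 48 P450 genes were higher and 23 lower, adding Cyp2a4, Cyp2d26, Cyp2j7 and Cyp3a25. Of the added genes, Cyp2d26, Cyp2j7 and Cyp3a25 had counts in a single group and had to differ. Of all genes in that fit, 13.9% were higher and 13.6% lower. The log2 fold change of Cyp11a1 turned to −0.0154 with library totals alone, −0.00908 without control replicate 2 and −0.0233 without DPCP replicate 2, and left-out libraries gave −0.0233 to 0.203. That of Cyp20a1 turned to −0.0179 with library totals alone, −0.0199 without control replicate 1 and −0.00992 without DPCP replicate 2, with left-out libraries giving −0.0199 to 0.186. Neither was called, and the cause was not tested. DESeq2 called 9 P450 genes higher and 20 lower. The labels do not say whether same-numbered libraries were paired. Deviations from the group mean had correlations of 0.0455, 0.0265 and 0.112 in same-numbered libraries, against −0.143 to 0.0990 in differently numbered ones. With 3 libraries in each group, these values cannot settle whether there was pairing. With the replicate block 9 were higher and 20 lower, the call of Cyp2b23 being lost. The comparison by protein identity was not run. Low genes are limited by depth: 3 counts amount to 0.0772 to 0.106 CPM.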

Other observations

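Further P450-named rows fell outside the selection and were not compared above. Cyp2ab1, a protein-coding gene with a 2-letter subfamily, was at 1.58 ± 0.763 CPM in DPCP and 3.10 ± 0.691 CPM in control skin (SD, n = 3 each), and was not called (log2 fold change −0.87 ± 0.37, SE, edgeR adjusted p = 0.0855). The pseudogene Cyp2b27-ps was at 0.740 ± 0.307 CPM in DPCP and 1.19 ± 0.351 CPM in control skin and was not called (−0.58 ± 0.38, SE, edgeR adjusted p = 0.246). Cyp4f41-ps, with 55 counts in all, was not tested.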
